A study of Mus musculus with 78 samples.

Results

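The cytosolic ribosomal proteins were followed as 1 family across a series of liver RNA-seq libraries from mice under lifespan-extending interventions. The family was chosen by name and level, not by response: protein-coding genes whose mouse symbol is Rpl or Rps with a digit, or Rplp0, Rplp1, Rplp2 or Rpsa, without the Rps6k kinases, Rps19bp1 and pseudogene names, at 10 CPM (read counts scaled to a common library size) or more in at least 3 libraries. Of 43629 rows in the count table, 91 had such a symbol, 85 of them were protein coding, and 81 passed the level rule. They were 48 genes of the large subunit and 33 of the small subunit. The 4 coding genes under the level rule were Rpl10l and Rpl39l (testis-type copies), Rpl3l (a copy typical of striated muscle) and the row for Rpl24. The Rpl24 row held 0.0663 to 2.68 CPM, and whether this low value reflects the gene's level in liver was not tested.

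Each group had 3 libraries, which the labels call biological replicates, so 26 groups gave 78 libraries. The 6-month groups were UM-HET3 mice, a genetically mixed stock in which each animal carries its own combination of alleles, of both sexes: controls, and mice that for 2 months were restricted by 40% in calories or ate chow with 1200 ppm Protandim, 42 ppm rapamycin, 14.4 ppm 17-alpha-estradiol or 1000 ppm acarbose. The 12-month groups, again UM-HET3 mice of both sexes, were controls and mice that for 8 months were restricted by 40% in calories or ate 1000 ppm acarbose or 14 ppm rapamycin. Acarbose blocks starch digestion in the gut, rapamycin inhibits the kinase complex mTORC1, Protandim is a mixture of plant extracts, and 17-alpha-estradiol is a stereoisomer of the estrogen estradiol. Methionine restriction was studied in C57BL6/J males of 14 months, fed 0.12% or (controls) 0.86% methionine for 12 months. The mutants were males of 5 months with littermate controls: GHRKO mice, which lack the growth hormone receptor, from the stock (C57BL6/JxBALB/cByJ)/F2, and Snell dwarf mice, whose pituitary makes no growth hormone, prolactin or thyrotropin, from (PW/JxC3H/HeJ)/F2. UM-HET3, GHRKO and Snell mice ate the same base chow and the C57BL6/J mice another diet. The 3 male-only models say nothing of females, and the labels do not give the hour of collection or the sequencing run.

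A cytosolic ribosome is built from ribosomal RNA and a nearly fixed set of proteins, 1 copy of most of them per particle, so the cell makes these proteins in matched amounts. Their mRNAs are short, abundant and ordinarily begin with a C followed by an unbroken stretch of pyrimidines, the terminal oligopyrimidine (TOP) tract, through which mTORC1 and the RNA-binding protein LARP1 control how strongly they are translated. Liver is one of the main protein-secreting organs, and its ribosome content is known to follow feeding and growth hormone status. The libraries hold polyadenylated RNA, so the values below are mRNA amounts and not translation. In bulk liver, fewer cells of a type and less RNA per cell cannot be told apart.

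Only part of the family shows that tract at its annotated start. RefSeq promoter entries (GRCm38.p6) were found for 61 of the 81 genes, with 72 start sites. Of the 61 genes, 14 (23%) had a C at an annotated start followed by at least 4 letters that were each C or T, against 3.01% of all 27025 genes in the same table. A run of 8 or more C or T letters lay within 10 bases before to 20 bases from the start on in 39.3% of the family and in 13% of all genes. The windows below run 5′ to 3′ over those 30 bases, with the start at position 11 and the longest C or T run in capitals. The first group begins with a C and a pyrimidine run at the annotated start. The second holds genes described under calorie restriction below that have no such start. Genes with such a start responded too: Rplp2 and Rps21 were each called in 3 of the 19 comparisons with a control, more than any other gene. The last pair is a gene and its retrogene, whose reads are hard to separate.
Rps6 (chr4:86857348-86857377, minus strand): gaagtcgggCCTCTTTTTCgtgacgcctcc
Rplp2 (chr7:141447641-141447670, plus strand): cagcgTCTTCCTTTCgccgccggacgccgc
Rpl35 (chr2:39005112-39005141, minus strand): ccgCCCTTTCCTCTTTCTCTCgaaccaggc
Rps18 (chr17:33955646-33955675, minus strand): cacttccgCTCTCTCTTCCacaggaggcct
Rps24 (chr14:24490668-24490697, plus strand): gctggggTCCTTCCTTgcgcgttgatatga
Rps4x (chrX:102189372-102189401, minus strand): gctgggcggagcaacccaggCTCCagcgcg
Rpl22l1 (chr3:28805498-28805527, plus strand): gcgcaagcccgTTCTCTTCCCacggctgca
Rpl7l1 (chr17:46782637-46782666, minus strand): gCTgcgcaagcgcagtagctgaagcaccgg
Rps27 (chr3:90213629-90213658, minus strand): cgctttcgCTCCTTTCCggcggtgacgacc
Rps27rt (chr9:114982720-114982749, minus strand): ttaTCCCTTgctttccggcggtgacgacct

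Each window covers the end of the promoter and the start of the first exon. The Rps27 and Rps27rt windows share a run of 19 letters. Over the whole promoter entry (250 bases before to 50 from the start on, both strands), the letters CCGGAAG, the core bound by ETS-family factors, were in 41% of the family's genes and 9.93% of all genes. CTTTCC was in 52.5% against 29.3%, AAGATGG in 16.4% against 7.28%, and the TATA box letters TATAAA in 11.5% against 15.7%. CTTTCC overlaps the pyrimidine runs, and a match is a description of letters, not of binding.

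The genes differed widely in level. Per kilobase of transcript, mean levels over the 78 libraries were highest for Rplp1 (739 CPM per kb), a stalk protein that recruits elongation factors, followed by Rpl41 (615), Rpl10 (548), Rps28 (479) and Rps15 (459). The lowest were Rpl22l1 (31.8), Rps20 (42.2, on a principal transcript of 3706 bases), Rpl7l1 (48.7), Rps27 (68.0) and Rpl35 (83.8). Rpl22l1 is a paralog of Rpl22, and Rpl7l1 is a paralog of Rpl7 that acts in assembly of the large subunit. Together the 81 genes took 1.19% to 2.64% of the counts of a library (median 1.57%), from library totals of 15521588 to 37778510. All 81 passed the low-count filter in every fit. Pseudogene rows named after these genes took 0.00329% to 0.0905% of the counts.

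Checks of the samples bear on the comparisons. Summed counts of 7 hepatocyte markers were 1378683 to 4226473 in each library, so all were liver. In 9 libraries, however, markers of adrenal gland, pancreas, kidney or skeletal muscle summed to more than 1000 counts: calorie-restricted female 2 and male 2 of 6 months (muscle, 23501 and 3321), rapamycin male 2 of 6 months (adrenal, 40784), acarbose male 3 (pancreas, 5701), Protandim female 3 (pancreas, 1244) and 17-alpha-estradiol male 2 (kidney, 32157) of 6 months, calorie-restricted female 1 (adrenal, 3540) and rapamycin male 3 (muscle, 28816) of 12 months, and Snell dwarf 1 (muscle, 5991). Counts of called family genes are given with and without them where they differ, and values of other gene lists only with them. The median log2 fold change of the family in calorie-restricted females went from 0.27 to 0.18 at 6 months without them. At 12 months it went from 0.45 to 0.67. In the mutants, Ghr had 818, 1366 and 1337 counts in GHRKO livers against 10809, 11232 and 7407 in controls, and Igf1, the growth hormone target, had 209, 381 and 477 counts in Snell livers against 9716, 11258 and 9858. The Snell gene itself, Pou1f1, had at most 1 count in the 12 libraries of the mutant stocks and checks nothing.

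**Figure D1:**
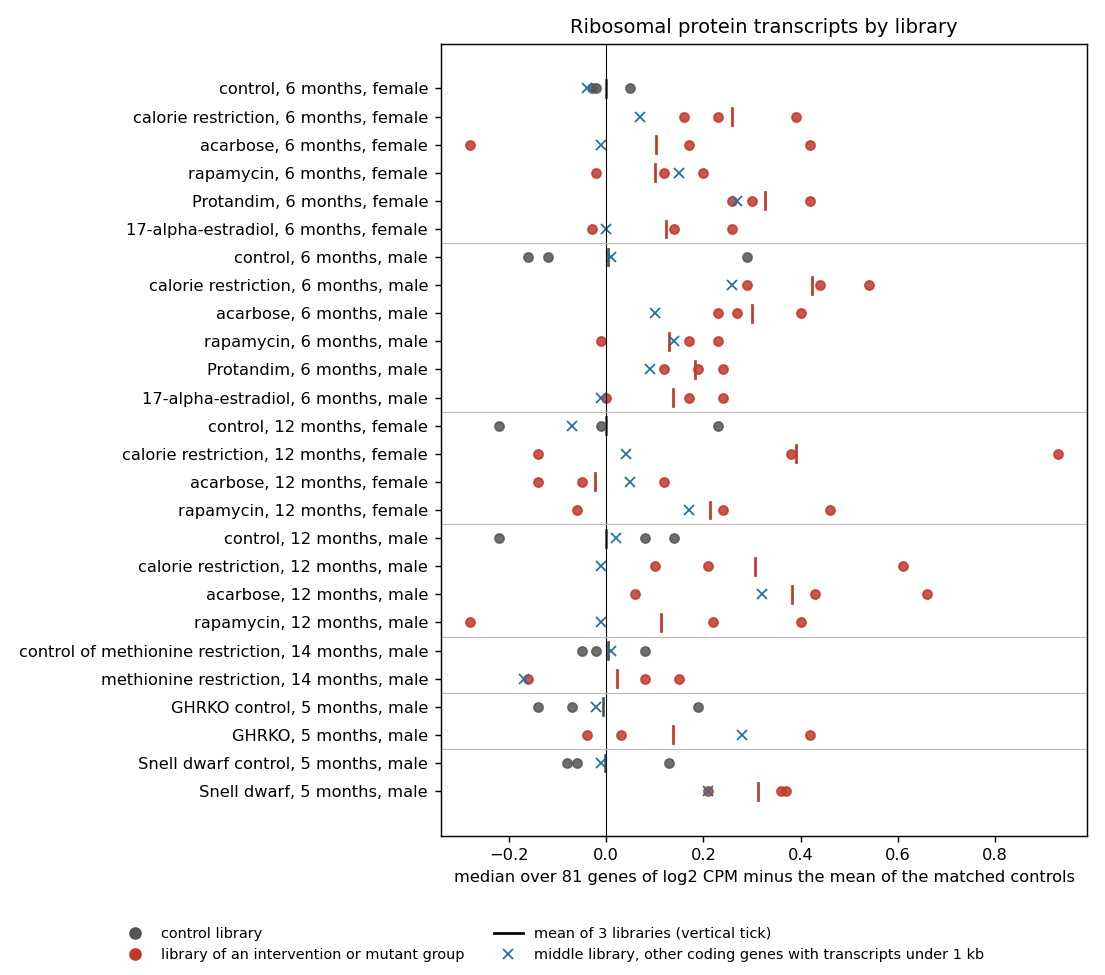
Each point is 1 library: the median over the 81 genes of log2 CPM minus the mean of its matched controls (horizontal axis, log2 units), by group (vertical axis). Bars are group means and crosses the middle library of the same measure for other short genes; the calorie-restricted, Protandim female, Snell dwarf and acarbose male groups have means of 0.26 to 0.42. All 3 points lie above their controls in restricted females of 6 months, Protandim females and Snell dwarfs, while restricted males of 6 months start at the level of 1 control (0.29) and the restricted groups of 12 months overlap theirs (females from -0.14 to 0.93).

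Calorie restriction for 2 months raised part of the family at 6 months of age. In males 22 of the 81 genes rose and 0 fell by edgeR's quasi-likelihood test (adjusted p under 0.05 over all 14816 genes), where 3.66% of all genes tested rose and 4.18% fell. In females 6 rose and 0 fell, against a background of 7.73% higher and 9.29% lower, so the female count is near the background. The median log2 fold change was 0.42 in males and 0.27 in females, beside -0.01 and 0.01 over all genes tested, and the estimate was positive for 78 and 77 of the 81 genes. Over 925 other coding genes with transcripts under 1 kb the medians were 0.20 and 0.10, and with the trend on transcript length and GC content removed the family medians were 0.28 and 0.17. All 3 restricted libraries lay above all 3 controls for 38 genes in males and 50 in females, against 12.3% and 16.4% of all genes tested. With the sexes averaged, an analysis added after the data were seen, 57 genes rose and 1 fell (median 0.35), against 12.5% and 13.6% of all genes tested.

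Rpl22l1 (chr3:28805436-28807424) had the largest fold among the genes that rose in both sexes. Its levels were 11.6, 15.3 and 10.1 CPM in control females and 18.4, 25.1 and 18.2 CPM in restricted females. In males they were 9.11, 13.9 and 12.8 CPM in controls and 22.7, 21.4 and 18.1 CPM under restriction. No restricted library overlapped the controls of its sex, and the log2 fold change was 0.74 ± 0.18 (SE, edgeR adjusted p = 0.0048) in females and 0.80 ± 0.18 (edgeR adjusted p = 0.00583) in males. Its paralog Rpl22 rose by 0.27 ± 0.07 on the log2 scale over both sexes (edgeR adjusted p = 0.00654).

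Rps24, a small-subunit protein needed for maturation of its ribosomal RNA, stood at 124, 127 and 117 CPM in control females and at 175, 187 and 164 CPM in restricted females. Male livers had 96.3, 139 and 98.8 CPM in controls and 164, 156 and 160 CPM under restriction. The groups did not overlap in either sex, and the log2 fold changes were 0.51 ± 0.12 (edgeR adjusted p = 0.00421) and 0.52 ± 0.12 (edgeR adjusted p = 0.00799). Rps4x, an X-linked gene of the small subunit, was at 209, 205 and 189 CPM in control females against 278, 285 and 255 CPM, and at 162, 207 and 166 CPM in control males against 246, 241 and 259 CPM, again without overlap.

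Rpl3, which forms part of the peptidyl transferase region, rose in males from 157, 155 and 126 CPM to 212, 225 and 281 CPM (log2 fold change 0.71 ± 0.13, edgeR adjusted p = 0.00122). In females it was 207, 236 and 218 CPM in controls and 215, 249 and 292 CPM under restriction, groups that overlapped, and it was not called. The test of the difference between the sexes called none of the 81 genes, Rpl3 included. Rps25, which helps ribosomes start on internal entry sites, rose in males from 131, 180 and 127 CPM to 199, 208 and 224 CPM, with no overlap.

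Among genes with known roles, the averaged effect was 0.41 ± 0.13 (log2, edgeR adjusted p = 0.0168) for Rplp1 and 0.40 ± 0.11 (0.00716) for Rplp2, the acidic stalk proteins. The stalk base Rplp0 was at 0.09 ± 0.31 (0.859) and varied strongly between animals. Rpsa, the laminin-receptor protein of the small subunit, rose by 0.63 ± 0.18 (0.0112) and Rps3, at the mRNA entry channel, by 0.26 ± 0.08 (0.0204). Of the pair that binds MDM2, Rpl11 rose by 0.25 ± 0.10 (0.0493) and Rpl5 was at 0.14 ± 0.08 (0.197). Rps6, the mTORC1-pathway phosphorylation target, was at 0.22 ± 0.09 (0.08), from 279, 258 and 251 CPM to 301, 304 and 276 CPM in females. Rpl10, whose loading completes the large subunit, rose by 0.30 ± 0.09 (0.0151), Rpl39 of the exit tunnel by 0.41 ± 0.10 (0.00318) and Rpl36a by 0.37 ± 0.09 (0.00502), while Rps27l, a target of p53, was at 0.17 ± 0.09 (0.154). The 1 gene that fell was Rpl7l1, by 0.25 ± 0.09 on the log2 scale (edgeR adjusted p = 0.0352).

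The male count of 22 depended on the fit and on single libraries. It uses a spread estimated over all 36 libraries of 6 months, and in a fit of the restricted and control males alone it was 1. Counts are thus not ranked against those of the methionine and mutant sets, which were fitted on their own 6 libraries. The male count was 53 without control male 2, whose family score (0.29) lay above those of the other 2 control males (-0.16 and -0.12), and 2, 7, 7 and 10 without control 1, control 3, restricted male 3 or restricted male 2. The female count was 3 without restricted female 2. Without that library Rpl22l1 lost its call in females (edgeR adjusted p = 0.0612), as it did in males without control 1 (0.0548). Without the libraries that carried markers of another tissue, 1 gene was called in females, 8 in males and 22 in the average of the sexes, and with the trend on transcript length and GC content removed 10 in males and 27 in the average.

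**Figure D2:**
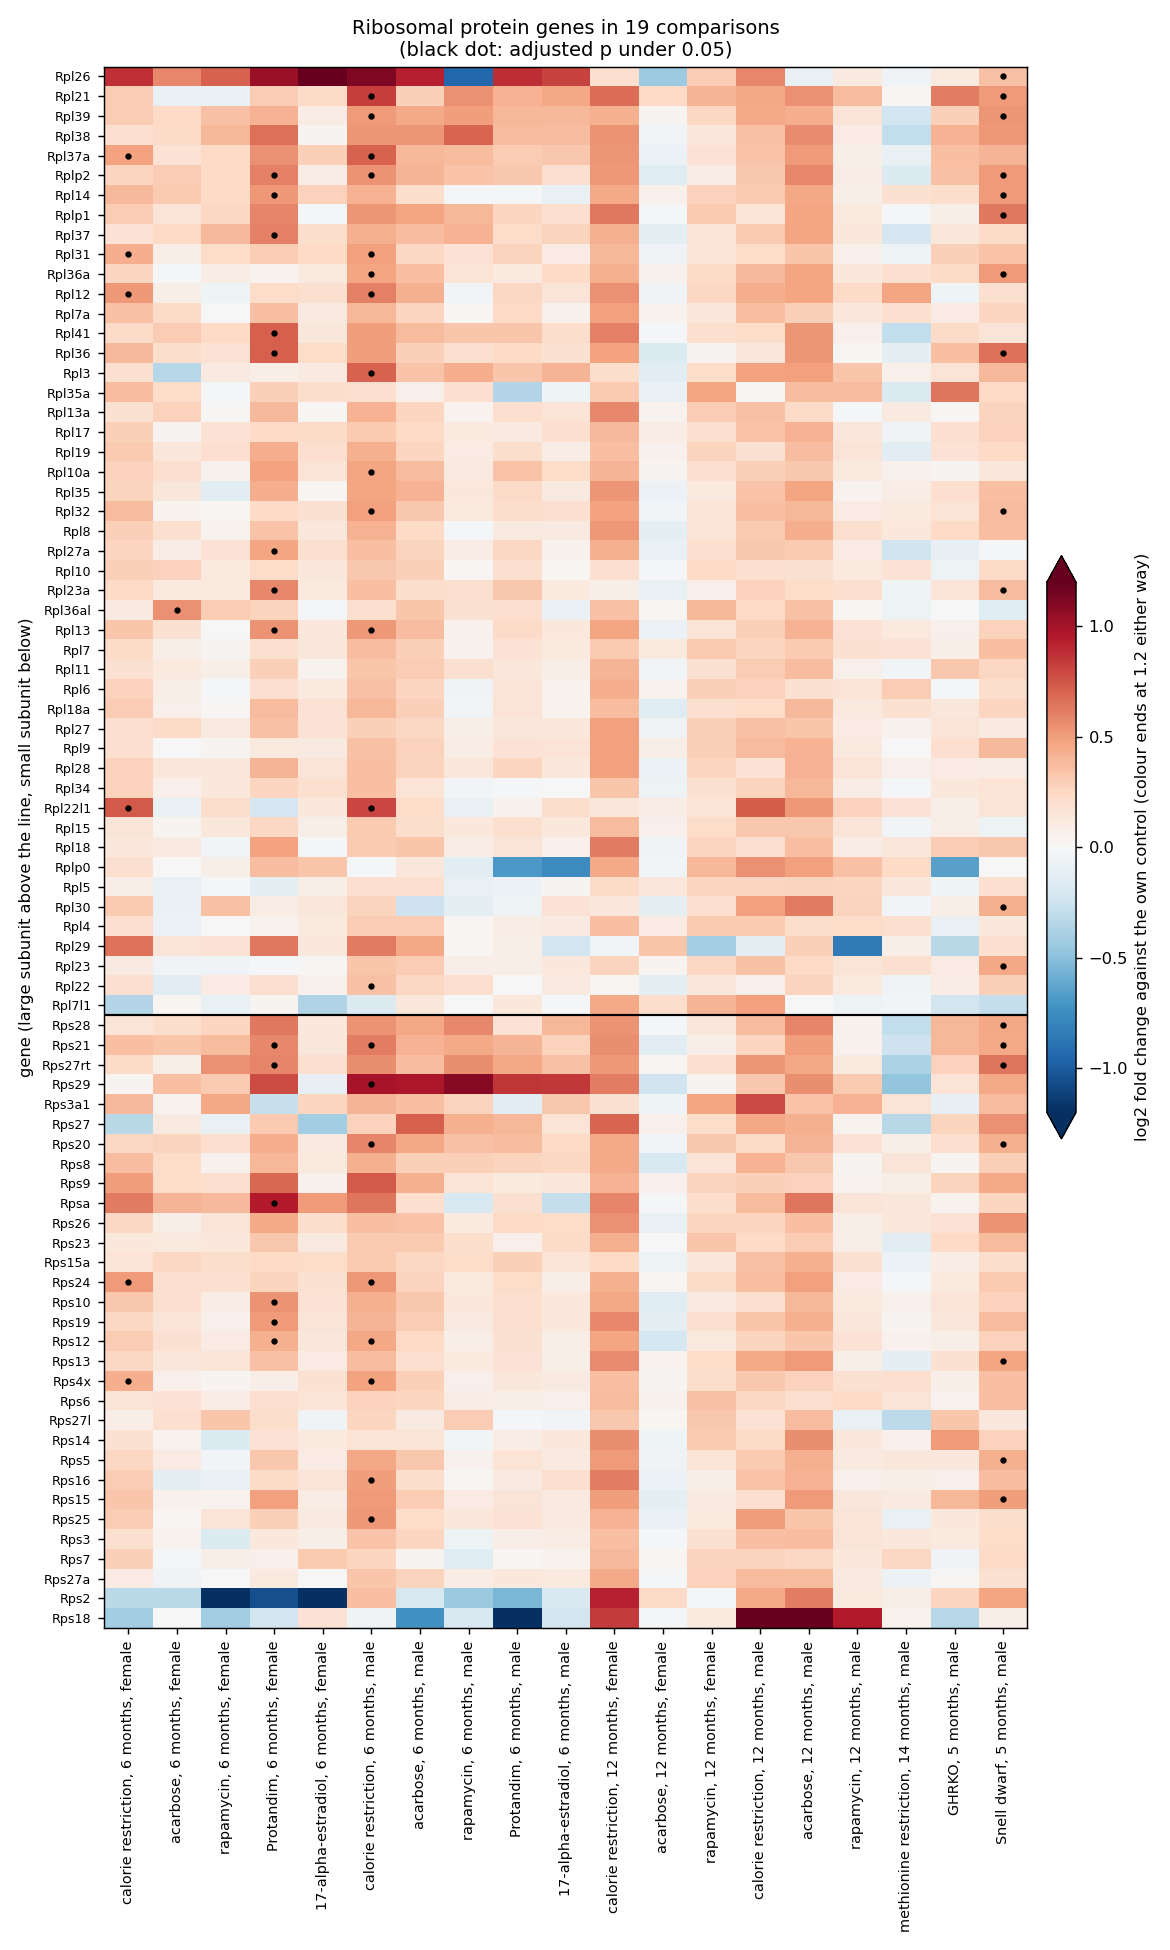
Rows are genes of the family (large subunit above the line, small below), columns the 19 comparisons with a group's own control, and colour is the log2 fold change (ends at 1.2 either way). Black dots mark adjusted p under 0.05; most dots lie in the male calorie restriction, Protandim female and Snell dwarf columns, and the columns of 12 months hold none.

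At 12 months, after 8 months of restriction, the family lay above its controls in median but spread more between animals. The median log2 fold change was 0.45 in females and 0.32 in males, beside -0.02 and 0.01 over all genes tested and 0.13 and 0.09 over 865 other short coding genes, and 80 of 81 estimates were positive in each sex. All restricted libraries lay above all controls for 2 genes in females (9.52% of all genes tested) and 26 in males (13%). In neither sex did edgeR call any of the 81 genes. At an unadjusted p under 0.05 there were 18 genes in females and 7 in males, DESeq2 called 2 and 1, and 2.05% and 1.77% of all genes tested rose by edgeR. The 3 restricted females had family scores of -0.14, 0.38 and 0.93, from below the control mean to the highest of all libraries, and the median SE of a gene was 0.25 against 0.15 at 6 months. With the sexes averaged, 8 genes rose and 0 fell (median 0.39), against 6.74% and 7.05% of all genes tested: Rpl7l1, Rpl21, Rps13, Rpl7a, Rps18, Rpl4, Rps25 and Rpl15.

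That count moved past 1.5 times whichever of the 12 libraries was left out, to between 1 and 29. It was 29 without restricted female 1, the library with adrenal markers, and 32 without all libraries that carried markers of another tissue. With the trend on transcript length and GC content removed it was 37. Rpl21 was 87.4, 87.7 and 103 CPM in control females and 113, 139 and 188 CPM in restricted ones, without overlap. In males it was 106, 90.1 and 81.9 CPM in controls and 107, 178 and 97.7 CPM under restriction, which overlapped.

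Rpl7l1 (chr17:46773907-46782672) was the gene whose response differed between the ages. At 6 months it was 69.3, 61.4 and 66.5 CPM in control females and 51.2, 52.5 and 51.4 CPM in restricted females. At 12 months it was 52.0, 54.2 and 58.6 CPM in control females and 78.7, 73.5 and 73.2 CPM in restricted ones. Restricted females were thus below every control at the first age and above every control at the second. The effect at 12 months minus that at 6 months was 0.81 ± 0.18 on the log2 scale (edgeR adjusted p = 0.00644 over all genes, where 3.24% of all genes tested were higher). This was the only one of the 81 genes called.

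In males Rpl7l1 was 60.7, 68.6 and 52.3 CPM in controls and 46.0, 56.1 and 60.3 CPM under restriction at 6 months. At 12 months male controls had 66.3, 74.7 and 69.3 CPM and restricted males 94.6, 113 and 88.0 CPM, with no overlap. Averaged over the sexes the 12-month effect was 0.47 ± 0.10 (edgeR adjusted p = 0.00352), and it was called under all 8 other settings tried and whichever library was left out. The fall at 6 months was less firm: it kept its sign but lost the call without a filter on low counts (edgeR adjusted p = 0.0843) and without the libraries with markers of another tissue (0.059). In the male age difference edgeR called 0 of the 81 genes (1 at an unadjusted p under 0.05, and DESeq2 called 1), beside 0.477% of all genes higher. Age, length of restriction and any difference between the library sets cannot be told apart.

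Genes for ribosome assembly were called mostly lower at 6 months and mostly higher at 12 months. Of 30 ribosome biogenesis genes, 2 (6.67%) rose and 9 (30%) fell under 6-month calorie restriction averaged over the sexes, where 12.5% of all genes tested rose and 13.6% fell (median -0.16, beside 0.00 over all genes tested). Ltv1, an export and assembly factor of the small subunit, fell by 0.91 ± 0.11 on the log2 scale (edgeR adjusted p = 1.22e-06), Rrp12, a nuclear export factor, by 0.59 ± 0.10 (6.75e-05) and Dkc1, the pseudouridine synthase of ribosomal RNA, by 0.40 ± 0.08 (0.000324). At 12 months 9 (30%) rose and 1 (3.33%) fell, where 6.74% and 7.05% of all genes did (median 0.29, beside -0.01), with Rrp12 at 1.38 ± 0.15 (9.92e-06), the nucleolar factor Wdr12 at 0.64 ± 0.11 (0.000458) and the RNA methyltransferase Nop2 at 0.71 ± 0.14 (0.00194). The test between the ages gave Rrp12 differences of 2.06 ± 0.27 in females (edgeR adjusted p = 9.7e-05) and 1.89 ± 0.27 in males (0.000574), and Ltv1 differences of 1.31 ± 0.23 (0.00126) and 1.10 ± 0.23 (0.0171). The lists were chosen with earlier results of these data known, so the counts are a description.

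The other partners of the ribosome are given for the same averages of the sexes, to be read against 12.5% of all genes higher and 13.6% lower at 6 months and 6.74% and 7.05% at 12 months. Of 24 TOP mRNAs that encode translation factors and similar proteins, 8 (33.3%) rose and 0 fell at 6 months, among them the helicase subunit Eif4a2 (0.56 ± 0.09) and the nucleolar chaperone Npm1 (0.43 ± 0.10). In females alone 1 of the 24 (4.17%) rose and 2 (8.33%) fell, where 7.73% of all genes tested rose and 9.29% fell. The 2 were the splicing factor Hnrnpa1 (-0.57 ± 0.16, edgeR adjusted p = 0.0156) and the initiation factor subunit Eif2s3x (-0.27 ± 0.09, 0.039). In males 3 (12.5%) rose and 0 fell, where 3.66% of all genes rose and 4.18% fell. The 3 measured genes of further ribosome parts included Fau, which encodes a small-subunit protein as a ubiquitin-like fusion (0.43 ± 0.12), and Rack1 (0.30 ± 0.10), and both rose. Among 75 mitochondrial ribosomal protein genes 14 (18.7%) rose and 6 (8%) fell at 6 months (median 0.07), and 9 (12%) rose and 0 fell at 12 months (median 0.20). By sex at 6 months 4 of them (5.33%) rose and 8 (10.7%) fell in females, and 5 (6.67%) rose and 1 (1.33%) fell in males. Against the same single-sex shares of all genes, the female counts of both lists are near or under the background. Of 21 mTORC1 pathway genes 1 (4.76%) rose and 8 (38.1%) fell at 6 months, with Mtor itself at -0.56 ± 0.11 (edgeR adjusted p = 0.000652) and the cap-binding protein Eif4e at -0.34 ± 0.07 (0.000778). Eif4e was at 0.56 ± 0.09 (0.000399) at 12 months, where 1 gene of that list rose and 1 fell. Of 15 genes for chaperones of single ribosomal proteins and for ribosome quality control, 0 rose and 5 (33.3%) fell at 6 months and 4 (26.7%) rose and 0 fell at 12 months. The recycling factor Abce1 was among them at both ages, at -0.47 ± 0.09 (0.000262) and 0.47 ± 0.12 (0.00863).

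**Figure D3:**
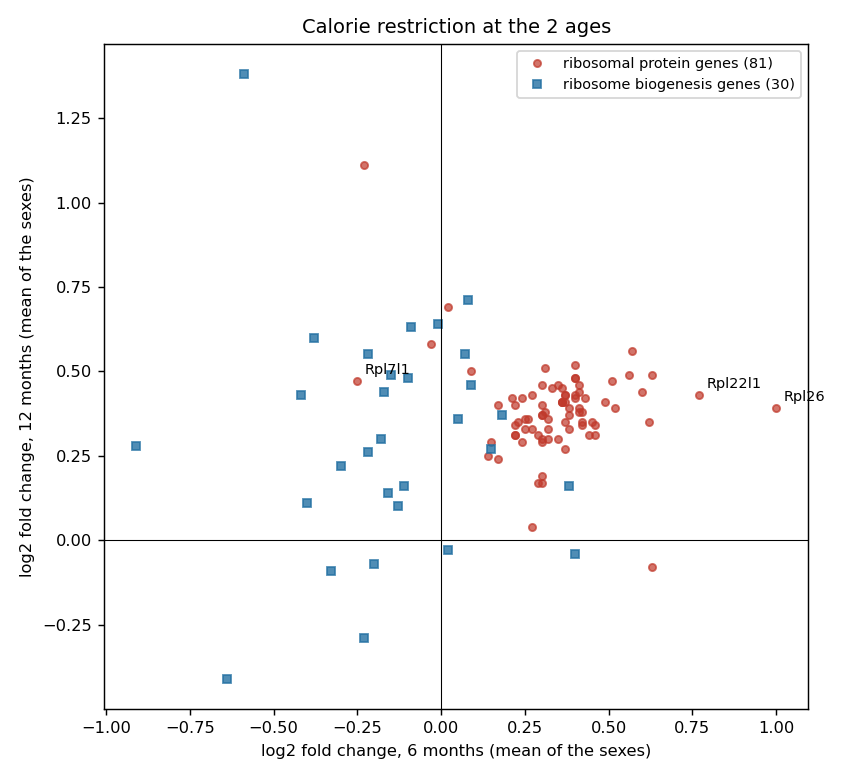
Log2 fold change under calorie restriction at 6 months (horizontal) and 12 months (vertical), each the mean of the sexes, for the 81 ribosomal protein genes (circles) and 30 biogenesis genes (squares). Nearly all circles lie to the right of and above 0, Rpl7l1 (-0.25 and 0.47) lies in the upper left, and the squares reach from left of 0 to above it.

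Part of the family also rose in the Snell dwarf liver. Of the 81 genes 20 rose and 0 fell, against 9.34% of 12528 genes tested that rose and 10.8% that fell, and 50 genes had all 3 dwarf libraries above all 3 controls, against 19.9% of all genes tested. The median log2 fold change was 0.31, beside 0.01 over all genes and 0.20 over 779 other coding genes with transcripts under 1 kb. Of the rises, 12 were in the large and 8 in the small subunit. Markers of other cell types moved in the same libraries. Summed counts of 3 red cell markers were 1828 to 4975 in dwarfs and 5357 to 7018 in controls, and those of 7 lymphocyte markers 138 to 262 against 105 to 133, neither with overlap. Their part in the result was not tested.

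Rpl36, a large-subunit protein encoded at chr17:56613416-56614243, had 103, 95.2 and 113 CPM in controls and 159, 144 and 188 CPM in dwarfs (log2 fold change 0.66 ± 0.13, edgeR adjusted p = 0.0105). Rplp1 had 282, 267 and 310 CPM against 383, 522 and 422 CPM (0.63 ± 0.14, edgeR adjusted p = 0.0176). Neither gene had overlapping groups. Rps27rt rose from 78.0, 80.2 and 89.5 CPM to 120, 153 and 113 CPM. Rps6 was at 215, 234 and 267 CPM in controls and 290, 326 and 302 CPM in dwarfs, also without overlap, and was not called (0.36 ± 0.12, edgeR adjusted p = 0.0718).

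Rpl22l1, with the largest fold of the genes that rose in both sexes under restriction at 6 months, did not share the shift. It was 17.6, 18.1 and 22.6 CPM in controls and 17.7, 33.3 and 13.8 CPM in dwarfs, which overlapped. Rpl7l1 was at 67.5, 60.5 and 65.6 CPM in controls and 49.4, 53.4 and 55.9 CPM in dwarfs, every dwarf below every control, and was not called (-0.29 ± 0.10, edgeR adjusted p = 0.0811). Calls in the dwarf and in male calorie restriction, which share no libraries, had 8 genes in common, among them Rpl21, Rpl32, Rpl36a, Rpl39, Rplp2, Rps20 and Rps21. The 8 made 36.4% of the 22 restriction calls, where 20 of all 81 genes were dwarf calls. They made 40% of the 20 dwarf calls, where 22 of all 81 genes were restriction calls. Whether the overlap exceeds those shares was not tested. The 6 female restriction calls had 0 genes in common with the dwarf calls.

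The dwarf count was 29 without dwarf 1, the library with muscle markers, but 10 and 6 without dwarf 2 or dwarf 3 and 0 without control 1 or control 2, where Rpl36 and Rps27rt were at edgeR adjusted p of 0.0527 to 0.0731. Among partner genes Fau rose by 0.79 ± 0.19. Of 75 mitochondrial ribosomal protein genes 5 (6.67%) rose and 0 fell, and of 21 mTORC1 genes 2 (9.52%) rose and 2 (9.52%) fell, where 9.34% of all genes rose and 10.8% fell, so these counts are near or under the background. The mTORC1 calls included the complex's inhibitor Deptor at -1.38 ± 0.25 (edgeR adjusted p = 0.00813) and the translation repressor Eif4ebp1 at 0.79 ± 0.17 (0.0147).

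GHRKO livers, which lack the same hormone signal at the receptor, did not give calls in the family. By edgeR 0 of the 81 genes passed (9 at an unadjusted p under 0.05, and DESeq2 called 3), while 7.25% of 12571 genes tested rose, and 5 genes had all knockouts above all controls, against 18.1% of all genes. The median was 0.14, beside -0.01 over all genes and 0.33 over 785 other short coding genes, and it was -0.01 with the trend on exon length and GC content removed and -0.15 with that on transcript length and GC content, so its sign depends on that correction. Rpl36 was at 99.2, 108 and 113 CPM in controls and 160, 109 and 142 CPM in knockouts, so knockout 1 was high, knockout 2 lay among the controls and the groups overlapped. Rplp0 ran the other way, at 272, 286 and 441 CPM in controls and 222, 163 and 253 CPM in knockouts (-0.65 ± 0.22, edgeR adjusted p = 0.0849). The knockout was compared with controls of its own stock, and the difference between the 2 dwarf models was not tested. The count was 2 without knockout 3 or control 3. Of the partner lists, 13 mitochondrial ribosomal protein genes (17.3%) rose and 0 fell, with Mrpl23 at 1.08 ± 0.16 (0.0026), where 7.25% of all genes rose. Of the biogenesis genes 0 rose and 5 (16.7%) fell, where 7.59% of all genes fell, with the nucleolar processing factor Heatr1 at -0.79 ± 0.17 (0.0135).

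**Figure D4:**
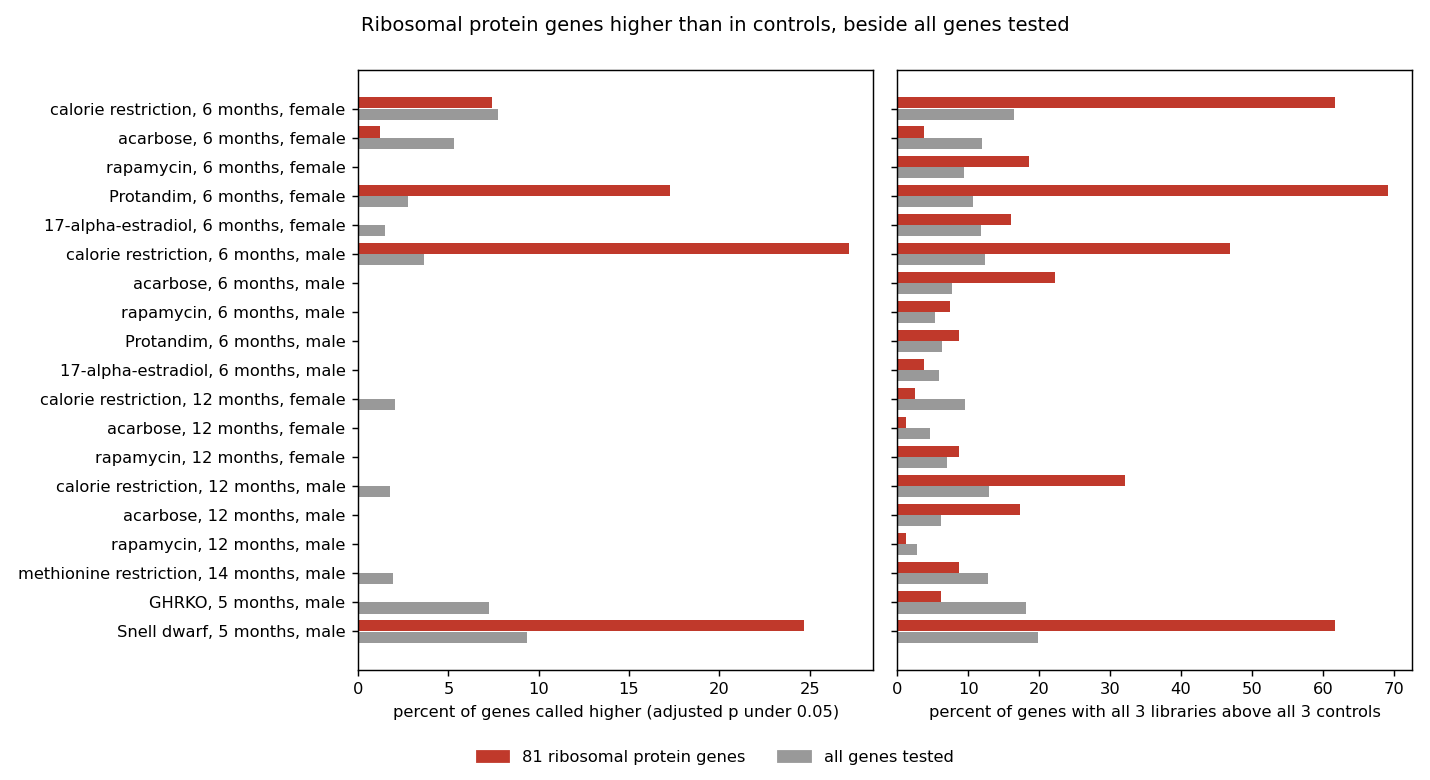
Percent of genes called higher than the own control (left) and percent with all 3 libraries above all 3 controls (right), for the 81 ribosomal protein genes (red) and all genes tested (grey), in 19 comparisons. Red exceeds grey on the left in male calorie restriction at 6 months, Protandim females and Snell dwarfs, where 22, 14 and 20 of the 81 genes were called.

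The 5 interventions of 6 months share their controls within each sex, so their values are given side by side and not as separate support. Protandim gave 14 higher and 0 lower calls in females (median 0.32, background 2.75% higher and 2.6% lower), and 56 genes had all Protandim females above all controls, against 10.7% of all genes. Rpl23a, a docking protein at the exit tunnel, was at 70.6, 67.3 and 71.7 CPM in control females and 101, 107 and 104 CPM with Protandim (0.58 ± 0.13, edgeR adjusted p = 0.0136). Rpl36 was at 146, 134 and 137 CPM against 203, 251 and 234 CPM, and Rpl41, the smallest ribosomal protein, at 244, 210 and 210 CPM against 327, 415 and 353 CPM. Neither overlapped.

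Other short genes moved in the same libraries. The median over 925 other coding genes with transcripts under 1 kb was 0.29 in Protandim females. With the trend on exon or on transcript length and GC content removed, the family median was 0.21 or 0.12 and the Protandim count was 0, as it was without Protandim female 2, Protandim female 3 (the library with pancreas markers), control female 1 or control female 2, and it was 6 without control female 3. In Protandim males the edgeR count was 0 (median 0.17, 12 genes at an unadjusted p under 0.05, 0 by DESeq2, 0.00675% of all genes higher), and 7 genes had all Protandim males above all controls, against 6.24% of all genes. Averaged over the sexes 11 genes rose (0.81% of all genes), led by Rpl23a, Rps21 and Rps29, with 0 to 23 across the 12 fits that leave out 1 library, each of which moved the count past 1.5 times. In females 14 mitochondrial ribosomal protein genes (18.7%, against 2.75% of all genes) rose and 0 fell, with Mrpl14 at 0.99 ± 0.17 (edgeR adjusted p = 0.00697).

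Acarbose gave 1 call in females (5.28% of all genes higher): Rpl36al, the autosomal paralog of the X-linked Rpl36a, at 129, 110 and 135 CPM in controls and 140, 215 and 193 CPM with acarbose (0.55 ± 0.14, edgeR adjusted p = 0.00863). The count was 0 without acarbose female 2, acarbose female 3 or control female 2, and 12 without acarbose female 1, whose family score was -0.28 while the other 2 were at 0.17 and 0.42. In males, the same gene was at 128, 156 and 144 CPM in controls and 179, 193 and 169 CPM with acarbose, without overlap. In acarbose females 3 genes of the family had all libraries above all controls (11.9% of all genes tested), in acarbose males 18 (7.69%). In acarbose males edgeR called 0 of the 81 genes (40 at an unadjusted p under 0.05, 0 by DESeq2) and 0% of all genes, with a median of 0.29 and 78 positive estimates. Over both sexes 7 genes rose (3.18% of all genes), a count that was 43 without acarbose female 1, 19 without control male 2 and 1 or 2 without 8 of the other libraries.

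With rapamycin at 42 ppm edgeR called 0 genes in females (6 at an unadjusted p under 0.05, 0 by DESeq2, 0.0472% of all genes higher) and 0 in males (15 at an unadjusted p under 0.05, 1 by DESeq2, 0% of all genes), and the median was 0.11 in each sex, beside 0.12 and 0.13 over other short coding genes. With the trend on transcript length and GC content removed the medians were -0.07 and -0.03. All rapamycin libraries lay above all controls for 15 genes in females (9.44% of all genes tested) and 6 in males (5.39%). Averaged over the sexes 2 genes rose (0.229% of all genes). Rps27rt was at 115, 115 and 113 CPM in control females and 170, 175 and 158 CPM with rapamycin, and in males at 70.6, 127 and 81.2 CPM against 146, 117 and 148 CPM (0.56 ± 0.13 over both sexes, edgeR adjusted p = 0.0448). Rpl39, a small protein of the exit tunnel, was at 56.4, 49.8 and 50.6 CPM against 63.9, 63.9 and 71.7 CPM in females and at 38.4, 53.6 and 36.9 CPM against 61.7, 56.4 and 64.5 CPM in males (0.43 ± 0.10, edgeR adjusted p = 0.0488). Only the males of Rps27rt overlapped their controls. The count was 0 in 10 of the 12 fits that leave out 1 library and 1 or 4 in the others.

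With 17-alpha-estradiol edgeR called 0 genes in females (4 at an unadjusted p under 0.05, 0 by DESeq2, 1.48% of all genes higher) and 0 in males (3 at an unadjusted p under 0.05, 0 by DESeq2, 0.0607% of all genes higher), with a median of 0.13 in each sex. All treated libraries lay above all controls for 13 genes in females (11.8% of all genes tested) and 3 in males (5.92%). Averaged over the sexes it called 0 as well (9 at an unadjusted p under 0.05, 0 by DESeq2, 0.236% of all genes higher). At 12 months, where 3 interventions share controls within each sex, edgeR called 0 genes with acarbose or rapamycin. Medians were -0.03 for acarbose females, 0.40 for acarbose males, 0.21 for rapamycin females and 0.12 for rapamycin males. In acarbose males other short coding genes had a median of 0.29, and the family median was 0.15 with the trend on transcript length and GC content removed. At an unadjusted p under 0.05 there were 0, 7, 1 and 0 genes in that order, and DESeq2 called 0 in each. Of all genes tested, 0%, 0.0147%, 0.0147% and 0.00733% were higher. In acarbose males 14 genes had all libraries above all controls (6.17% of all genes tested), in acarbose females 1 (4.55%), in rapamycin females 7 (7.01%) and in rapamycin males 1 (2.84%). Averaged over the sexes edgeR and DESeq2 called 0 genes for either (1 and 3 at an unadjusted p under 0.05, with 0.044% and 0% of all genes higher by edgeR). Tests between the ages for acarbose also called 0 genes by edgeR and DESeq2, with 0 at an unadjusted p under 0.05 in females and 2 in males.

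Under methionine restriction the genes were divided in direction. The median was 0.05 (beside 0.00 over all genes), 45 of 81 estimates were positive, and edgeR called 0 genes (6 at an unadjusted p under 0.05, 1 by DESeq2) where 1.93% of 13858 genes tested rose. All restricted libraries lay above all controls for 7 genes (12.8% of all genes) and below them for 3 (12.1%). The count was 2 without control 1 and 1 without restricted mouse 3. Other short coding genes had a median of -0.16 in this comparison, and the family median was 0.13 with the trend on exon length and GC content removed and 0.24 with that on transcript length and GC content.

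Differences between the sexes in the response were tested for the 8 interventions given to both. EdgeR called 0 of the 81 genes in each of the 8 tests, with 0 to 3 genes at an unadjusted p under 0.05, and DESeq2 called 1 gene in 1 test, for acarbose at 6 months. Of all genes tested, 0.378% were called for acarbose and 0.054% for 17-alpha-estradiol at 6 months, 0.00675% for calorie restriction at 6 months, 0.00733% for acarbose at 12 months and 0% in the other 4 tests. The largest median difference, male minus female, was 0.42 for acarbose at 12 months, with a median SE of 0.36 per gene. It was 0.25 with the trend on exon length and GC content removed and 0.08 with that on transcript length and GC content, under which acarbose at 6 months was at 0.23.

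Sizes of response with and without the C and pyrimidine start are given side by side, and their difference was not tested. Under 6-month calorie restriction averaged over the sexes the median was 0.34 for the 14 genes with such a start and 0.32 for the 47 matched genes without. In the Snell dwarf the medians were 0.36 and 0.27, in Protandim females 0.42 and 0.30, in GHRKO 0.21 and 0.12, and in 12-month calorie restriction 0.40 and 0.39, while under methionine restriction they were -0.05 and 0.05. Calls numbered 9 of 14 and 33 of 47 in averaged 6-month restriction, 5 of 14 and 7 of 47 in Protandim females, and 4 of 14 and 7 of 47 in the dwarf. The annotated starts decide this grouping, and RefSeq starts can lie some bases from the main start used in liver.

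Most of the family moved as 1 block from animal to animal. Over the 60 UM-HET3 libraries, after taking out group means, each gene's log2 CPM was correlated with the median of the other genes. The median r was 0.93. The points share libraries, depth and TMM scaling, and r was above 0.8 for 67 genes. The same correlation was not taken for genes outside the family, such as other short genes. Whether moving together is particular to the family was therefore not tested. Genes outside the block were Rpl26 (0.10), Rpl29 (0.14), Rps2 (0.25), Rps18 (0.29), Rplp0 (0.42), Rpl7l1 (0.44) and Rpl22l1 (0.50). Rpl7 (log2 fold changes of 0.03 to 0.37 over the 19 comparisons), Rps6 (0.04 to 0.38) and Rpl10 (-0.06 to 0.32) had the narrowest ranges. The widest were those of Rps18 (-2.03 to 1.47), Rps2 (-1.53 to 0.92), Rpl26 (-0.94 to 1.35) and Rps29 (-0.47 to 1.09).

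Those wide ranges came with wide spread inside groups. Rps18 (chr17:33951999-33956001) was at 110, 157 and 115 CPM in control males of 6 months and at 34.3, 30.5 and 28.8 CPM in Protandim males, with no overlap, and was still not called. Rps2 (chr17:24718116-24721929) was at 659, 355 and 745 CPM in control females and 418, 103 and 86.3 CPM with 17-alpha-estradiol, and Rpl26 (chr11:68901583-68906989) at 9.40, 53.1 and 55.0 CPM in control females and 109, 74.4 and 117 CPM with it. Control female 1 alone was low for Rpl26, as were rapamycin males 2 and 3 (8.09 and 10.3 CPM, against 59.0 CPM in male 1). The SD within groups of UM-HET3 mice was 1.07 for Rpl26, 0.94 for Rps18 and 0.94 for Rps2 in log2 units, against a family median of 0.25. In the GHRKO stock these SDs were 0.68, 0.85 and 0.63, in the Snell stock 0.08, 0.41 and 0.27, and in the inbred C57BL6/J mice 0.13, 0.16 and 0.06.

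For each of the 5 genes with the widest spread, the 36 libraries of 6 months were split at the widest gap between neighbouring levels. Any gene has such a gap. It was 3.03-fold for Rpl26, 2.2-fold for Rps18 and 1.85-fold for Rps2, but 1.36-fold for Rplp0 and 1.29-fold for Rpl29. For Rps18, 17 libraries were at or below 49.9 CPM and 19 at or above 110 CPM, and 10 of the 12 groups had libraries on both sides. For Rpl26, 7 libraries were at or below 13.9 CPM and 29 at or above 42.1 CPM. For Rps2, 9 were at or below 151 CPM and 27 at or above 279 CPM.

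The rows that moved with these genes from animal to animal lay largely on the same chromosome. This was looked at after the values were seen, for the 5 genes with the widest spread, over 8871 rows and 60 libraries with group means removed. Of the 15 rows with the highest correlations, 3 per gene, 14 were on the gene's own chromosome. Of the 15 rows that ran most strongly against the genes, 8 were. The share of the 8871 rows on each chromosome was not counted. Rps18 moved with the MHC class II genes H2-Ab1 (r = 0.93, 0.306 Mb away) and H2-Aa (0.91), Rps2 with the MHC class I genes H2-D1 (0.85, 10.5 Mb away) and H2-Q7 (0.80), Rpl29 with Glyctk (0.78, 0.277 Mb away), and Rplp0 with Prkab1 (0.63). The MHC region on chromosome 17 differs strongly between mouse strains, and the part of allele differences in these values was not tested.

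Some genes ran against the rows of their copies. Rps2 ran against its pseudogene Rps2-ps10 (r = -0.64), which held 9.19 to 821 CPM. The row most strongly against Rps2 was another processed pseudogene, Gm13443 (r = -0.73, 2.53 to 134 CPM), which was not added to the sums below. Rpl26 ran against Gm15772 (-0.64), a processed pseudogene for which RefSeq lists Rpl26 as a synonym, at 0 to 255 CPM. When the values of gene and copy were added, on the log2(CPM + 0.5) scale, the SD within groups fell from 0.94 to 0.27 for Rps2 and from 1.06 to 0.35 for Rpl26. Over the 19 comparisons the mean log2 difference from controls then ran from -0.16 to 0.60 for Rps2, where the gene alone ran from -1.84 to 0.99, and from -0.28 to 0.78 for Rpl26, where the gene alone ran from -1.49 to 1.68. In 17-alpha-estradiol females the Rps2 difference was -1.84 alone and 0.05 with the copy added, and in Protandim females -1.43 and 0.38. Single-row values of these 2 genes, and of Rps3a1 and its copies (0.37 alone, 0.23 added), are uncertain, and whether reads were divided between gene and copy was not tested.

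The Rps27 row differed between library sets. It held 2.2 to 8.41 CPM in the 42 libraries of the 6-month and methionine sets and 25.9 to 94.8 CPM in the 36 others, without overlap, while Rps27rt held 70.6 to 201 CPM and 78.0 to 231 CPM. UM-HET3 libraries lay on both sides, low at 6 and high at 12 months, and the level did not follow age, being low at 6 and 14 months and high at 5 and 12 months. The part of other differences between the library sets was not tested, and the reads of Rps27, Rps27rt and Rps27l, which share long stretches of sequence, were not resolved. Rps27 was not called in any of the 19 comparisons with controls.

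**Figure D5:**
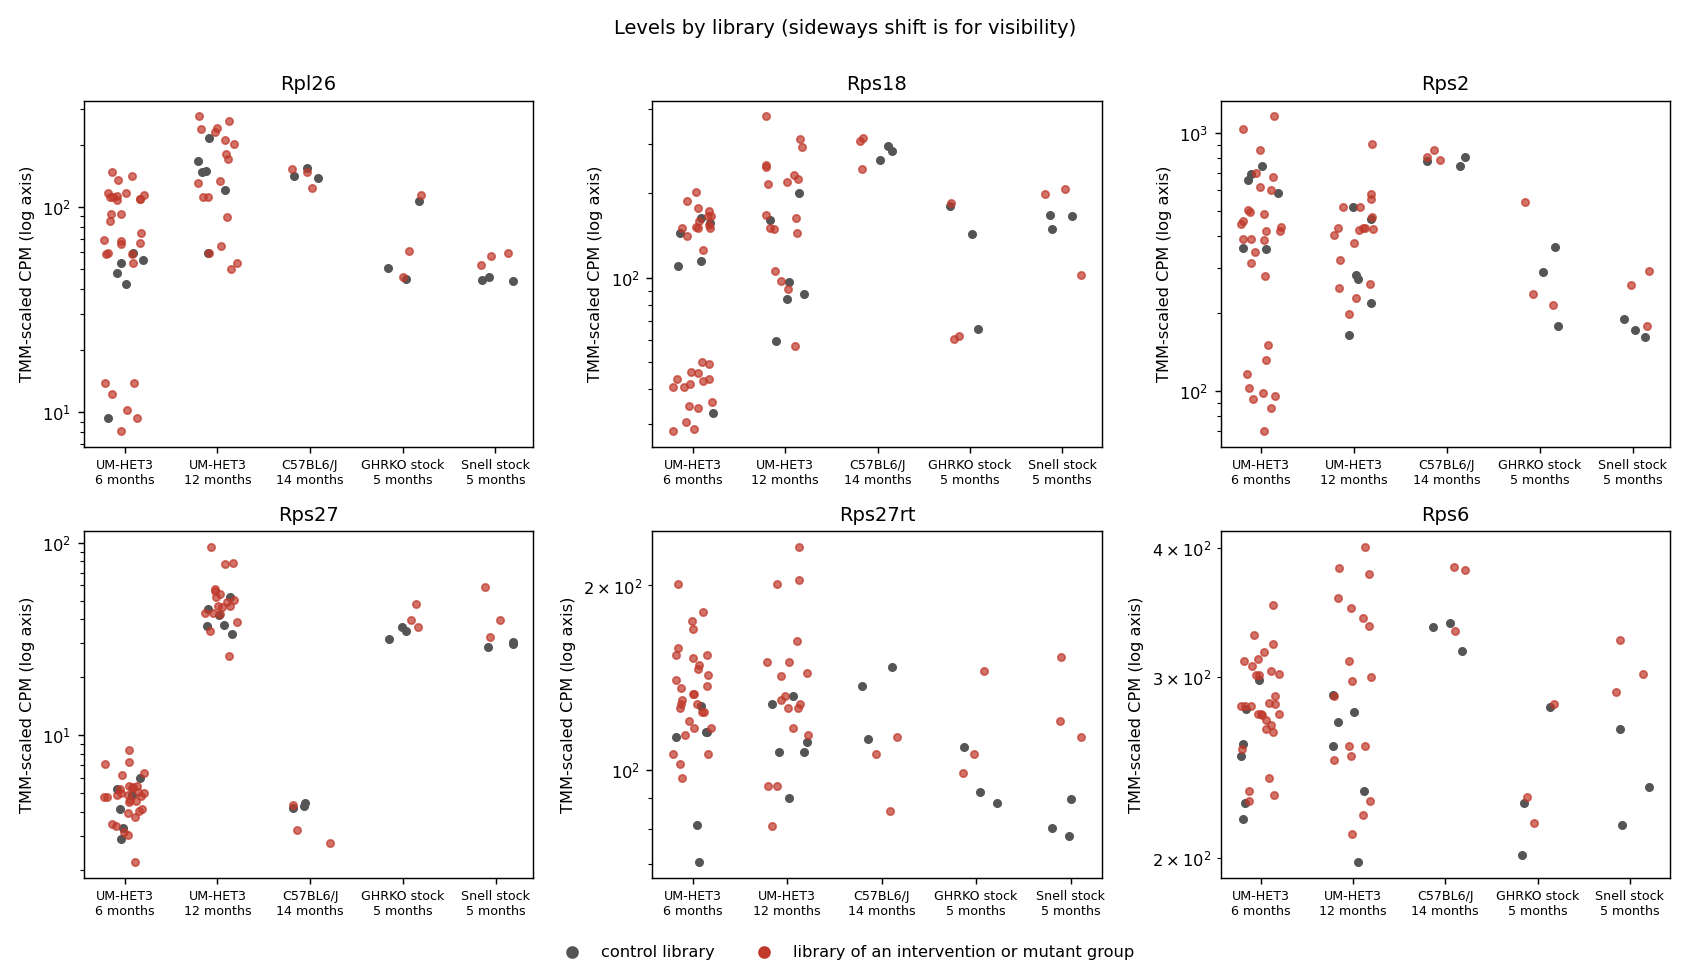
TMM-scaled CPM (log axis) of 6 genes in every library, by stock and age, with controls in grey and other groups in red; sideways shifts are for visibility. Rpl26, Rps18 and Rps2 scatter widely among UM-HET3 mice and little in C57BL6/J mice, Rps27 drops to 2.2 to 8.41 CPM in the 6-month and methionine libraries, and Rps6 stays within 198 to 401 CPM throughout.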

How the data were processed

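The deposited table held raw counts, whole numbers of reads assigned to genes by the authors, for 78 libraries, each column matched to 1 sample by title. Per the submitters' processing notes, reads were handled with bcl2fastq 1.8.4, Trimmomatic 0.32, STAR 2.5.2b and featureCounts 1.5 on mm10 (GRCm38). The strand of counting and the treatment of reads that fit several genes are not given in the sources used here, so values of overlapping genes and near-identical copies are uncertain. GENCODE vM21 (GRCm38) named 42548 of 43629 rows.

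Counts were tested in R 4.3.3 with edgeR 4.0.16 (filterByExpr, TMM, robust quasi-likelihood fit with 1 coefficient per group) in separate fits of the 6-month (36 libraries), 12-month (24), methionine, GHRKO and Snell libraries. A joint fit of 36 libraries gave differences between ages. P-values were adjusted by Benjamini-Hochberg over all genes tested, with a threshold of 0.05, and SEs came from the F statistic. Levels are TMM-scaled CPM, and library scores use log2 CPM with a prior count of 2. Members, gene lists, alternatives and the naming rule were chosen with earlier results of these data known. Genes were named for the smallest adjusted p (up to 3 per direction), for textbook roles, for the highest and lowest level, and for the widest and narrowest range over the comparisons. Means of the sexes, transcript length, gene copies and co-moving rows were added after seeing the data. Other settings were RLE size factors, DESeq2 1.42.0, no filter, a replicate block, only the compared groups, trends on exon or transcript length and GC content (spline with 4 df), leaving out 9 libraries with markers of another tissue, and leaving out each library. Results of some genes that met the naming rule are not reported here. The steps were tested on simulated counts with known changes in genes drawn from all levels. The fits were those of restricted males of both ages, methionine restriction, GHRKO and Snell. Of 2-fold changes 30% to 48% were called, and of 1.4-fold changes 0% to 7%. False calls made up 0% to 10.9% of the calls. A count of 0 calls therefore does not show that changes of these sizes were absent.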

Additional observations from a re-analysis of the deposited data

Results flagged for a closer look

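One result met the rule for a difference between groups. The effect of calorie restriction on Rpl7l1 in females differed between the ages by 0.81 ± 0.18 on the log2 scale (12 months minus 6 months, edgeR adjusted p = 0.00644 by the interaction test): 3 of 3 restricted females were below every control at 6 months and 3 of 3 above every control at 12 months. It was called in all 8 other settings, with adjusted p from 0.000481 to 0.0489.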

How the results depend on the processing

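None of the 29 calls of single genes changed sign under any setting. Of 296 family medians under other settings 11 moved by over 1 SD, all with a trend on length and GC content removed. With the exon trend these were rapamycin females (0.01) and Protandim females (0.21), and with the transcript trend restricted, rapamycin and Protandim females of 6 months (0.17, -0.07 and 0.12), methionine restriction (0.24), GHRKO (-0.15), the rapamycin and Protandim averages (-0.06 and 0.10), and the sex differences for Protandim (0.01) and 12-month acarbose (0.08). With RLE size factors every count stayed within 1.5 times of its value. DESeq2 called 42 genes in restricted males of 6 months, 27 in Protandim females, 25 and 7 in the Protandim and rapamycin averages, 3 in GHRKO, 2 in restricted females of 12 months, and 1 each in restricted males of 12 months, rapamycin males of 6 months, methionine restriction, the acarbose sex difference and the male age difference under restriction. Without a filter on low counts there were 6 in Protandim females, 1 each in methionine restriction and GHRKO, and 3, 0, 2 and 3 in the averages for acarbose, rapamycin, Protandim and 12-month restriction. In a fit of just the compared groups there were 1 in restricted males of 6 months, 0 in acarbose females, 0 in Protandim females, 1 in Protandim males, 1 in restricted males of 12 months, and 0, 0, 0 and 5 in those averages. The exon length and GC trend left 0 in Protandim females, 2 in restricted females of 12 months, 2 in the female age difference, and 0, 0 and 25 in the rapamycin, Protandim and 12-month restriction averages. The transcript trend left 10 in restricted males of 6 months, 0 in Protandim females, 1 each with 17-alpha-estradiol in females, restricted males of 12 months, methionine restriction and GHRKO, 7 in restricted females of 12 months, 2 and 1 in the female and male age differences, and 27, 2, 0, 0 and 37 in the averages for 6-month restriction, acarbose, rapamycin, Protandim and 12-month restriction. Without the 9 libraries there were 1 and 8 in restricted females and males of 6 months, 0 in Protandim females, 2 in the female age difference, and 22, 3, 0, 0 and 32 in those averages. The cause was not tested.

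Leaving out 1 library gave 3 to 6 calls in restricted females and 2 to 53 in restricted males of 6 months, 0 to 12 in acarbose females, 0 to 21 in Protandim females, 0 to 2 in methionine restriction and in GHRKO, 0 to 29 in the Snell dwarf, 1 to 2 in the female age difference, and 39 to 67, 1 to 43, 0 to 4, 0 to 23 and 1 to 29 in the averages for 6-month restriction, acarbose, rapamycin, Protandim and 12-month restriction. Of the named calls, 178 of 270 values kept their call and 92 lost it. With the replicate number as a block the count was 1 in GHRKO, 12 in the Snell dwarf, and 1, 17 and 5 in the rapamycin, Protandim and 12-month restriction averages. The numbers do not pair the samples: in 0 of 19 comparisons did every pair correlate above 0.1 (r from -0.25 to 0.23). Depth limits chiefly rows at a few CPM, such as Rps27 at 6 months.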

Other observations

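The calls in Protandim females and in the Snell dwarf, which share no libraries, had 6 genes in common: Rpl14, Rpl23a, Rpl36, Rplp2, Rps21 and Rps27rt. They made 42.9% of the 14 Protandim calls, where 20 of all 81 genes were dwarf calls. They made 30% of the 20 dwarf calls, where 14 of all 81 genes were Protandim calls. This overlap was not tested against those shares. In the methionine set, where no gene of the family was called, Rps29 had the lowest value of its range over the 19 comparisons, -0.47 ± 0.15 on the log2 scale (edgeR adjusted p = 0.127).

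Rapamycin at 6 months, averaged over the sexes, lowered 1 of 30 biogenesis genes, Rrp12 (by 0.43 ± 0.10 on the log2 scale, edgeR adjusted p = 0.0448), and 1 of 21 mTORC1 genes, Rptor (by 0.25 ± 0.06, 0.0448), where 0.182% of all genes tested fell. With acarbose at 6 months 3 biogenesis genes (10%) rose and 0 fell, where 3.18% of all genes rose and 2.98% fell. With 17-alpha-estradiol, averaged over the sexes, 0 rose and 1 (3.33%) fell, where 0.236% and 0.148% of all genes did. In 17-alpha-estradiol females alone 0 rose and 5 (16.7%) fell, where 1.48% and 1.39% of all genes did. Among the 5 was Nop58 (-0.97 ± 0.16, edgeR adjusted p = 0.00253). In males 0 biogenesis genes rose or fell, where 0% of all genes fell.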
